A study of Mus musculus with 8 samples.

Results

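Aquaporins are the membrane channels that carry water, and in some members glycerol, across kidney cells. They were followed here as 9 genes, chosen by gene symbol: Aqp1, Aqp2, Aqp3, Aqp4, Aqp5, Aqp6, Aqp7, Aqp8 and Aqp11. These are 9 of the 26893 genes listed for the series, and all 9 passed the filter on low counts that left 15912 genes for testing. The RNA came from whole kidneys of mice aged 45 days, was selected for poly(A) tails and was sequenced as 8 libraries. WT was C57BL/6 (4 libraries), and the double knockout (dKO, 4 libraries) carried homozygous floxed Tsc1 alleles, a Cre recombinase named for Aqp2 and a knockout of Foxi1, on C57BL/6 as well. The design aims to remove Tsc1 in cells in which the Aqp2 promoter is active, among them the principal cells of the collecting duct. Where it was removed was not tested here. Tsc1 in the whole kidney ran from 39.6 to 63.6 CPM (the normalised read count, scaled to library size) in WT and from 43.3 to 57.6 in dKO. The sources used here do not say that each library came from its own animal, nor whether the Cre transgene carries any part of the Aqp2 transcript.

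The aquaporin through which water leaves the tubule fluid differs between parts of the nephron. In the proximal tubule and the thin descending limb the channel is AQP1, which is always in the membrane. In principal cells vasopressin, acting through cyclic AMP, brings vesicles with AQP2 to the apical membrane and raises transcription of its gene. Water then leaves the cell through AQP3 and AQP4 on the basolateral side. Intercalated cells, which secrete acid or base, lie between the principal cells, and FOXI1 is the forkhead transcription factor on which their identity depends. Because Aqp2 marks the principal cell and Aqp6 the A-type intercalated cell (A-IC), the comparison asked how the water channels of both collecting duct cell types, and of the segments before them, differed between dKO and WT kidneys.

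Read totals ran from 14791687 to 24973213 per library, and the aquaporins together took 0.134% to 0.244% of them. A pair of dKO libraries stood apart. The library labelled dKO replicate 4 held Foxi1 at 45.9 CPM, above the WT range of 26.6 to 33.6, while dKO replicates 1 to 3 held 1.33 to 1.56 CPM. In addition, dKO replicate 1 had 0 reads of the Y-linked genes and 11083 of Xist, whereas each of the other 7 libraries had at least 2189 Y-linked reads and at most 11 of Xist. Sex and replicate 1 cannot be told apart, so the fold changes of all 9 genes were also fitted without replicate 1, without the library labelled replicate 4 and without both. The plot of fold changes shows them all, and the text gives those that moved.

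Aqp2, Aqp5 and Aqp6 lie side by side on chromosome 15, all on the plus strand, between positions 99579055 and 99605477 (coordinates as deposited). Gaps of 6234 bases between Aqp2 and Aqp5 and of 6570 between Aqp5 and Aqp6 hold none of the other listed genes. Within this stretch of 26423 bases, dKO replicates 1 to 3 had Aqp2 above every WT library and Aqp6 at 0 to 1 read, while the library labelled replicate 4 had both genes above every WT library. For that reason the 250 bases before the RefSeq start of these genes are shown, from the RefSeq promoter table of GRCm38.p6, at chr15:99578806-99579055 (plus strand) for Aqp2 and chr15:99600950-99601199 (plus strand) for Aqp6. Capitals mark the matches to 4 motifs searched on both strands: the forkhead motifs TGTTTAC and TATTTAC, the core TGACG of the cyclic AMP response element, and the GATA motif AGATAA.
Aqp2: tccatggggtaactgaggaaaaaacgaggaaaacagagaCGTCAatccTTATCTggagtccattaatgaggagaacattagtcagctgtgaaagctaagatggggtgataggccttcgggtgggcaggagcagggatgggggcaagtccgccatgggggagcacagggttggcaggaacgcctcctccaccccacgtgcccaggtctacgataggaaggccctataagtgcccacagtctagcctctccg
Aqp6: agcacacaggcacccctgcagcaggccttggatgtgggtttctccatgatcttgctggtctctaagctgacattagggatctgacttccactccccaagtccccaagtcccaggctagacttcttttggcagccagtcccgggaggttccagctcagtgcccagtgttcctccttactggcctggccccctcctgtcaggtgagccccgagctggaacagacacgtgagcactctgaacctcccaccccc
The Aqp2 window held the cyclic AMP response core on its reverse strand, beginning 211 bases before the start, and the GATA motif on its reverse strand, beginning 202 bases before it. Over all 32851 promoters in the table, 17.8% held the first of these and 9.99% the second within the same length. In the Aqp6 window none of the 4 motifs was matched. That window ends at 99601199, short of the deposited start of Aqp6 at 99601400, and the bases between were not searched. The forkhead motifs were matched in no window of a matched aquaporin. They occurred in 3.17% (TGTTTAC) and 2.73% (TATTTAC) of all promoters. A match is a description of letters, not evidence that a factor binds. Of the 9 genes, 8 were matched in the table, with 9 windows since Aqp7 had more than one start. Aqp7 had the only other match, to the GATA motif. Aqp4 was not matched.

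**Figure D1:**
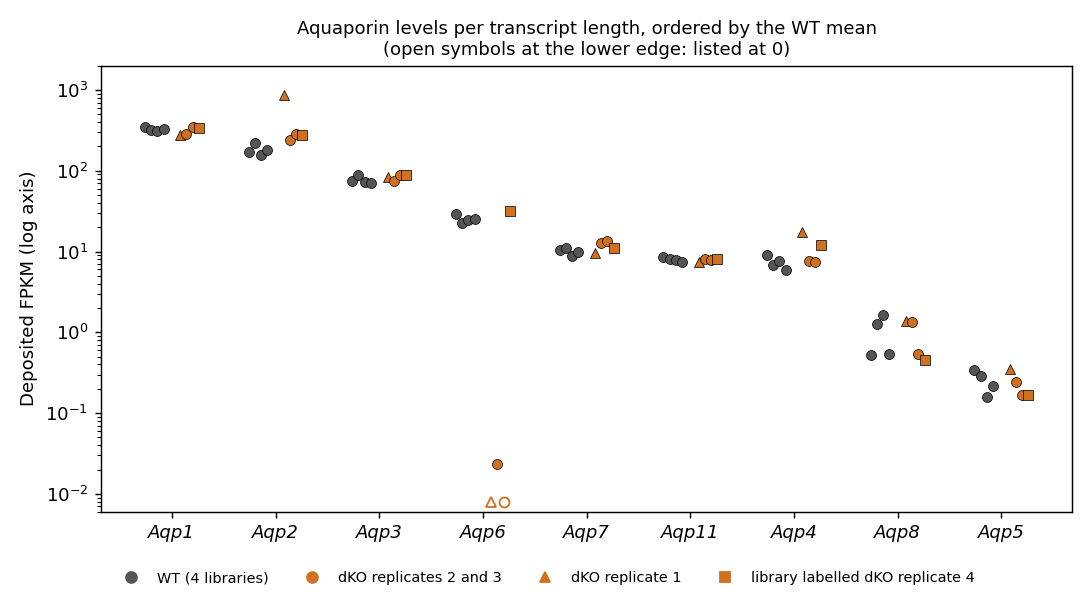
Deposited FPKM (reads scaled by gene length and library size, on a log axis) of each aquaporin in each library, ordered by the WT mean, with open symbols for values listed at 0. Aqp1 leads in WT at a mean of 329, Aqp2 in dKO replicate 1 reaches 864, and Aqp6 in dKO replicates 1 to 3 lies at or near 0.

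Levels were compared between genes per gene length, in the deposited FPKM. The order depends on the listed lengths: in WT Aqp11 (9418 bases) had a mean of 75.0 CPM and Aqp6 (2423 bases) 61.7. In WT kidneys Aqp1, the channel of the proximal tubule and thin descending limb, stood first at 329 ± 17.9 (SD, n = 4) and made up 51.4% of the summed FPKM of the 9 genes. Aqp2 was second at 183 ± 27.4, with 28.6%, and Aqp3 came next at 76.0 ± 8.46. Aqp6 followed at 25.4 ± 2.66, Aqp7 at 10.1 ± 0.966, Aqp11 at 7.96 ± 0.454 and Aqp4 at 7.38 ± 1.34. Aqp8 at 0.984 ± 0.543 and Aqp5 at 0.252 ± 0.0797 closed the order. The WT ranges of neighbours in this order did not overlap, with the exception of Aqp11 and Aqp4, whose levels did not differ beyond their spread. In the dKO group the order of means began with Aqp2, at 417 ± 299 and 48.9% of the sum, ahead of Aqp1 at 312 ± 39.0. That lead came from dKO replicate 1 alone: the FPKM ratio of Aqp2 to Aqp1 was 3.16 there and 0.838, 0.817 and 0.823 in replicates 2 to 4, against 0.486 to 0.696 in WT.

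No aquaporin passed the threshold of 0.05 in the comparison of all 8 libraries by edgeR's quasi-likelihood test (0 of 9, with 1 of 9 at an unadjusted p under 0.05), where 2.28% of all tested genes did. DESeq2 also called 0, with 6.12% of all genes called, and limma-voom called 1, which was Aqp6, with 2.15% of all genes called. The median log2 fold change of the 9 genes was -0.02, beside 0.0091 over all tested genes. Without dKO replicate 1 the count was 1 of 9, Aqp2, against 3.90% of all genes. Without the library labelled replicate 4 it was 1 of 9, Aqp6, against 2.11%, and without both it was again Aqp6, against 3.19%. Aqp2 was the only one of the 9 genes whose 2 groups did not overlap in CPM, a property of 12.1% of all tested genes.

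**Figure D2:**
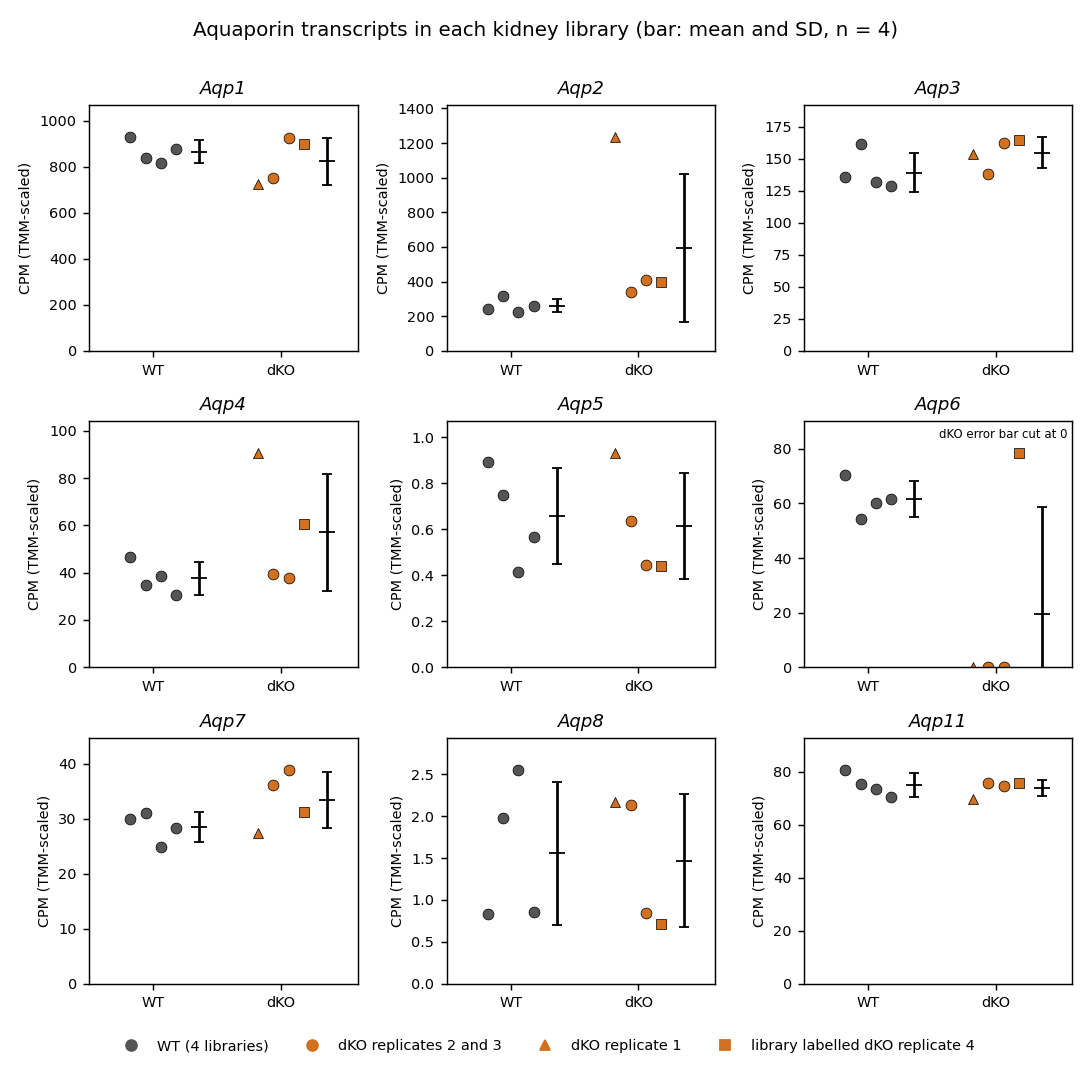
CPM of each aquaporin in each library, with the mean and SD of each group (n = 4) to the right of its points; each panel has its own axis starting at 0. Aqp2 is higher in every dKO library than in any WT library, and Aqp6 is at 0 to 0.0578 CPM in dKO replicates 1 to 3 but at 78.3 in the library labelled replicate 4.

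Aqp2, the vasopressin-regulated apical channel of principal cells (chromosome 15, 99579055 to 99584547, 4 exons in GENCODE M21), was higher in each dKO library than in every WT library. Its 4 WT libraries read 243.7, 314.3, 225.3 and 258.1 CPM. The dKO libraries, in order of replicate, read 1234, 339.4, 407.7 and 400.3 CPM. Replicate 1 thus lay at 474% of the WT mean and the other dKO libraries at 130% to 157%. The log2 fold change over all libraries was 1.19 (SE 0.418, 95% interval 0.23 to 2.16), with an adjusted p of 0.204, which missed the threshold. Without replicate 1 the difference was smaller but passed, at 0.55 (SE 0.115, interval 0.30 to 0.81, adjusted p = 0.0205). Without the library labelled replicate 4 it was 1.34 (adjusted p = 0.201), and with only dKO replicates 2 and 3 left it was 0.52 (SE 0.133, adjusted p = 0.0670). Changes in cell number and in RNA per cell cannot be told apart in RNA from a whole kidney, here or for any gene below.

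Aqp3, the basolateral channel through which water and glycerol leave principal cells (chromosome 4, 41092722 to 41098183, minus strand), did not share this pattern. The WT libraries had 135.4, 161.4, 131.4 and 128.3 CPM and the dKO libraries 153.6, 137.9, 162.5 and 164.6. The groups overlapped, and dKO replicate 1 lay within the range of the other dKO libraries. The log2 fold change was 0.15 (SE 0.0965, 95% interval -0.06 to 0.37, adjusted p = 0.473), so that a rise of more than 0.37 on the log2 scale lay outside the interval. The FPKM ratio of Aqp2 to Aqp3 within a library was 2.32, 2.51, 2.21 and 2.59 in WT, and 10.4, 3.17, 3.23 and 3.14 in dKO. On this ratio all dKO libraries lay above WT. The ratio of Aqp2 to Aqp4 did not separate the groups, at 18.7 to 32.5 in WT and 48.9, 30.9, 38.8 and 23.6 in dKO. Both ratios were given with no test. Aqp3 is also made by urothelium, whose 6 marker genes summed to 20.9 to 22.7 CPM in WT, 57.2 in dKO replicate 1 and 20.5 to 28.2 in dKO replicates 2 to 4, and their part in the Aqp3 level was not tested.

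Aqp4, the second basolateral water channel of principal cells, found mainly in the inner medulla (chromosome 18, 15389394 to 15403684, minus strand), varied with the pair of libraries that stood apart. Its WT levels were 46.7, 34.7, 38.5 and 30.5 CPM. Of the dKO libraries, replicate 1 had 90.4 CPM and the one labelled replicate 4 had 60.8, both above the highest WT library, while replicates 2 and 3 had 39.4 and 37.6, both inside the WT range. The log2 fold change was 0.60 (SE 0.284, 95% interval -0.04 to 1.25, adjusted p = 0.333). It was 0.29 without replicate 1 and 0.04 without both libraries. The deposited coordinates of Aqp4 differ from those in GENCODE M21, which lists 11 transcripts for it, while the start and end of the other 8 genes were the same in both.

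**Figure D3:**
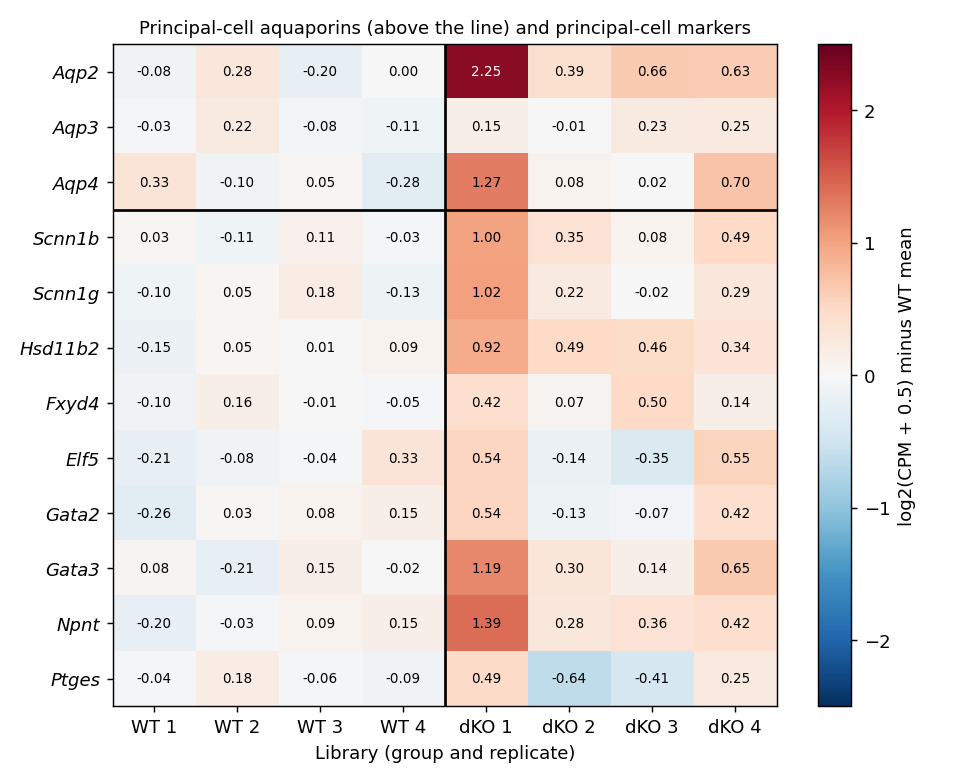
Difference of log2(CPM + 0.5) from the WT mean in each library, for Aqp2, Aqp3 and Aqp4 above the line and 9 other principal-cell genes below it. In dKO replicate 1 Aqp2 stands 2.25 above the WT mean, more than any of the other genes drawn, while Aqp3 stands 0.15 above it.

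Of the principal-cell genes other than the aquaporins, few were called. The list held 10 of them, among them the epithelial sodium channel subunits Scnn1b and Scnn1g and the transcription factors Gata2, Gata3 and Elf5. Their summed level was 431 to 495 CPM in WT, 577 to 615 in dKO replicates 2 to 4 and 974.7 in replicate 1, with none of the 10 at 0 reads in any library. Of 9 tested, 1 passed in the higher direction and 0 in the lower, with a median log2 fold change of 0.44, or 0.25 without dKO replicate 1. In dKO replicates 2 and 3 Elf5, Gata2 and Ptges, the prostaglandin E synthase, lay below their WT means, and in replicate 1 all 9 lay above. The one was Hsd11b2, an enzyme that inactivates glucocorticoids in aldosterone target cells, at 165 ± 11.7 CPM in WT and 244 ± 46.2 in dKO (log2 0.57, SE 0.127, adjusted p = 0.0477), a call that was lost in 10 of 19 alternatives. Set against the mean of the 9 tested genes in each library, Aqp2 was 0.63 higher in dKO on the log2 scale (exact permutation test over the 70 divisions of 8 libraries, two-sided, p = 0.0571, adjusted over 8 such tests 0.152), and 0.37 higher without replicate 1. Relative Aqp2 ran from 2.80 to 3.33 in WT and from 3.29 to 3.64 in dKO replicates 2 to 4, and reached 4.47 in replicate 1, so that the groups overlapped. Aqp3 was -0.20 and Aqp4 0.17 relative to the same genes (exact permutation tests, adjusted p = 0.571 for both). Single libraries moved both values: without dKO replicate 1 they were -0.03 and 0.08, and Aqp4 was 0.31 without WT replicate 1 and 0.06 without WT replicate 4.

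The machinery that acts on Aqp2 was read from a list of vasopressin receptors, cyclic AMP enzymes, kinase subunits and transcription factors. Of its 26 genes 25 were tested, 0 passed in either direction (0 at an adjusted p under 0.05 by edgeR), and the median log2 fold change was 0.02. Without the library labelled replicate 4, 1 passed as lower, the vasopressin receptor Avpr1a (log2 -2.50, SE 0.243, adjusted p = 0.000772). Over all libraries Avpr1a was at log2 -0.94 (adjusted p = 0.603 by edgeR). Its dKO libraries ran from 0.967 to 11.6 CPM, below and above the WT range of 6.24 to 8.64. Which cells make it in these kidneys was not tested. Avpr2, the vasopressin receptor of principal cells, had a mean of 0.163 CPM in WT and 0.174 in dKO and was not tested at this depth. Closest to the threshold was Pde4b, a phosphodiesterase that breaks down cyclic AMP, with 11.2 ± 0.564 CPM in WT and 14.9 ± 1.53 in dKO (log2 0.41, adjusted p = 0.0839). Of 18 genes that move or remove AQP2 vesicles, 1 passed, and the median was -0.01. This was Snap23, a membrane fusion protein of the SNARE family (chromosome 2, 120567671 to 120601255), at 46.5 ± 2.80 CPM in WT and 79.0 ± 2.47 in dKO. It rose by 0.76 on the log2 scale (SE 0.0711, adjusted p = 0.000448) and passed in all 19 alternatives. Of the 7 genes of the osmotic response 0 passed with all libraries (median 0.0069), and without dKO replicate 1 the aldose reductase Akr1b3 passed as lower (log2 -0.64, adjusted p = 0.0147). Of the 2 urea channels Slc14a1 and Slc14a2 0 passed. Their median was 0.38 with all libraries and -0.04 without dKO replicate 1, a library in which they summed to 97.5 CPM. Their sums were 35.7 to 46.9 CPM in WT and 35.2 to 40.4 in dKO replicates 2 to 4.

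Aqp6, an anion-permeable aquaporin in the vesicles of A-ICs (chromosome 15, 99601400 to 99605477), divided the dKO group. The WT libraries had 1266, 1018, 870 and 1088 reads, or 70.5, 54.5, 60.1 and 61.7 CPM. In dKO replicates 1, 2 and 3 there were 0, 1 and 0 reads, below the floor of 3 reads per library that corresponds to 0.121 to 0.173 CPM there. The library labelled dKO replicate 4 had 1423 reads, or 78.3 CPM, above every WT library. Over all libraries the log2 fold change was -1.67 (SE 1.72, 95% interval -5.78 to 2.44, adjusted p = 0.699). Without that library Aqp6 passed the threshold as lower (adjusted p = 1.93e-07), and the fitted value of -11.45 depends on the prior count. By reads, 4242 over the 4 WT libraries stood against 1 over dKO replicates 1 to 3, a ratio of 3995 after scaling (exact binomial 95% interval 717 to 157822, counting error only).

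**Figure D4:**
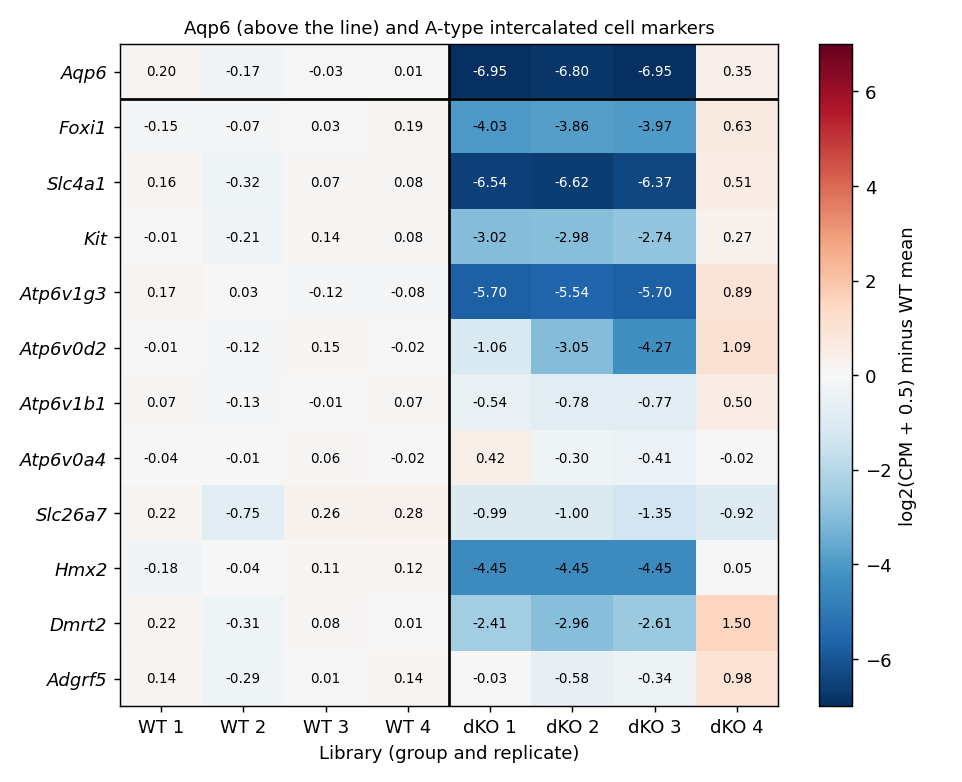
Difference of log2(CPM + 0.5) from the WT mean in each library, for Aqp6 above the line and the 11 A-IC genes below it. Aqp6 lies at -6.95 to -6.80 in dKO replicates 1 to 3 and at 0.35 in the library labelled replicate 4, and Slc4a1 and Hmx2 divide the libraries in the same way.

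Of the 11 genes of the A-IC list, 8 showed the same division: each of dKO replicates 1 to 3 lay below the lowest WT library and the library labelled replicate 4 did not. Foxi1, the targeted gene by which replicate 4 was set apart, is among the 8, and 1.80% of all tested genes showed this division. Slc4a1, the chloride-bicarbonate exchanger of the A-IC basolateral membrane, had 2, 1 and 4 reads in dKO replicates 1 to 3 and 1407 in the library labelled replicate 4, against 812 to 1092 in WT. Hmx2, a homeobox transcription factor, had 0 reads in each of dKO replicates 1 to 3 and 196 in the library labelled replicate 4. Atp6v0a4, a proton pump subunit that other nephron segments also express, was not reduced in this way. Its level was 380.8 CPM in dKO replicate 1 and 214 to 281 in the others, against 276 to 297 in WT. Slc26a7 was low in the library labelled replicate 4 too. Its dKO libraries held 0.886 to 1.38 CPM, all below the lowest WT library, and replicate 4 held 1.38. Adgrf5 had 83.1, 57.0 and 67.3 CPM in dKO replicates 1 to 3, the first of these inside the WT range of 69.6 to 94.0. It had 168.6 in the library labelled replicate 4. Of 11 tested, 1 passed in the lower direction with all libraries (Slc26a7, log2 fold change -1.40, adjusted p = 0.0414, lost in 10 of 19 alternatives) and 7 without the library labelled replicate 4. Set against these 11 genes, the relative level of Aqp6 was 1.02 to 1.27 in WT, -3.25, -2.75 and -2.83 in dKO replicates 1 to 3 and 0.98 in replicate 4. The difference of means was -3.09, and p = 0.0286 (exact permutation test, two-sided) is the smallest value the design allows, 0.114 after adjustment over 8 tests, which missed the threshold. With 0 to 1 read in dKO replicates 1 to 3 its size rests on the 0.5 added to CPM: it was -2.25 with 2 added, -4.15 with 0.1 added and -2.38 against the list median. It also rests on the mix of list genes. In dKO replicates 1 to 3 Slc4a1 lay at -6.62 to -6.37 from its WT mean and Atp6v0a4 at -0.41 to 0.42, on the log2 scale. A loss of Aqp6 beyond that of other A-IC transcripts can therefore not be read from this difference.

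Aqp5, between Aqp2 and Aqp6 on chromosome 15 (99590782 to 99594829), is the channel of salivary, lacrimal and airway glands and was near the limit of counting here. It had 16, 14, 6 and 10 reads in the WT libraries and 21, 11, 11 and 8 in the dKO libraries. The groups overlapped, with a log2 fold change of -0.11 (SE 0.372, 95% interval -0.93 to 0.72, adjusted p = 0.925), so changes inside that interval were not detectable at this depth. The protein-coding genes nearest to the cluster were Bcdin3d, Nckap5l and Faim2 on one side and Racgap1, Asic1 and Smarcd1 on the other. Of these 6 genes 5 were tested and 0 passed, with log2 fold changes from -0.12 (Asic1) to 0.32 (Nckap5l, adjusted p = 0.324) and unadjusted p-values of 0.0603 or more.

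**Figure D5:**
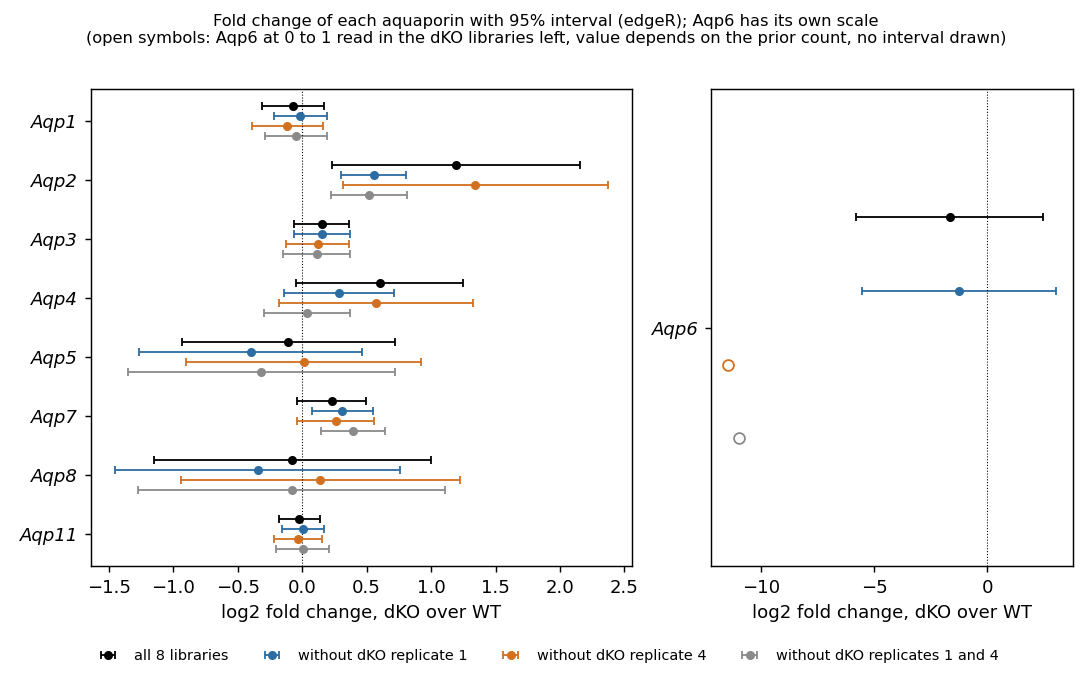
Log2 fold change of dKO over WT with its 95% interval (edgeR) for each aquaporin, over all 8 libraries and without dKO replicate 1, the library labelled dKO replicate 4, or both; Aqp6 has its own axis, and its open symbols carry no interval. Aqp2 lies above 0 in all 4 fits, from 0.52 to 1.34, and Aqp1, Aqp3 and Aqp11 stay between -0.11 and 0.15.

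Aqp1 (chromosome 6, 55336432 to 55348555) carries most of the water that the proximal tubule and thin descending limb take back, and is also made by red cells and vasa recta endothelium. Its WT levels were 929.2, 836.6, 817.8 and 877.6 CPM and its dKO levels 724, 750, 924.4 and 900. The groups overlapped, with dKO replicates 1 and 2 below every WT library. Its log2 fold change was -0.07 (SE 0.109, 95% interval -0.31 to 0.17, adjusted p = 0.814). Relative to 10 proximal tubule genes, of which 1 passed as higher (the organic anion transporter Slc22a8, log2 0.58, adjusted p = 0.0180) and 0 as lower, Aqp1 differed by -0.03 (exact permutation test, adjusted p = 0.914). The 10 genes summed to 18931 to 21117 CPM in WT, 14039 in dKO replicate 1 and 18339 to 19314 in replicates 2 to 4. Without replicate 1, Slc13a3 passed as lower (log2 -0.46, adjusted p = 0.00762 by edgeR). Slc5a2 then passed as higher beside Slc22a8 (log2 0.41, adjusted p = 0.0482 by edgeR). Summed levels of the 8 endothelial genes were 462 to 571 CPM in WT, 478 to 624 in dKO replicates 2 to 4 and 758 in replicate 1, and those of the 5 erythroid genes 289 to 561 and 209 to 259. The 4 thin limb genes summed to 129.5 to 164 CPM in WT, 101 to 156 in dKO replicates 2 to 4 and 338 in replicate 1. Their part in the Aqp1 level was not tested.

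Aqp11 (chromosome 7, 97724006 to 97738289, minus strand), an intracellular aquaporin of the proximal tubule whose loss gives polycystic kidneys in mice, was the steadiest of the 9 genes. It had 80.9, 75.3, 73.5 and 70.5 CPM in WT and 69.7, 75.8, 74.6 and 75.8 in dKO. The log2 fold change was -0.02 (SE 0.0704, adjusted p = 0.922), and its 95% interval of -0.18 to 0.14 was the narrowest of the 9. Relative to the proximal tubule genes it differed by 0.03 (exact permutation test, adjusted p = 0.751).

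Aqp7 (chromosome 4, 41033074 to 41048139, minus strand) carries glycerol and water in the brush border of the straight proximal tubule, and glycerol in fat cells. It had 29.9, 31.1, 24.8 and 28.3 CPM in WT and 27.4, 36.2, 38.9 and 31.2 in dKO. Here dKO replicates 2 to 4 lay above every WT library and replicate 1 lay among them. Aqp7 differed by 0.23 on the log2 scale (SE 0.12, 95% interval -0.04 to 0.50, adjusted p = 0.377), and 0.40 with dKO replicates 2 and 3 alone (SE 0.112, adjusted p = 0.103). The 7 straight tubule genes were summed to 5130 to 5882 CPM in WT, 3724 to 4457 in dKO replicates 2 to 4 and 747.9 in replicate 1, with 1 of 7 past the threshold (Slco1a6, log2 -0.69, adjusted p = 0.0320). Without replicate 1, 3 of these genes passed as lower (Slco1a6, Atp11a and Acsm3) and 1 as higher (Cyp7b1). Relative to them Aqp7 was 1.36 higher in dKO on the log2 scale, at p = 0.0286 before and 0.114 after adjustment (exact permutation test), and 0.48 higher without replicate 1. Relative Aqp7 was -0.0080 in dKO replicate 1, the library without Y-linked reads, and -3.65 to -3.42 in dKO replicates 2 to 4. In WT it ran from -4.30 to -3.87. Against the list median the difference was 0.48 (exact permutation test, adjusted p = 0.32). The relative level rests on the mix of list genes. In their lowest dKO library Slc7a13 had 0.354 CPM, Cyp7b1 2.48 and Acsm3 6.68, against at least 750, 169 and 995 in WT. Lows of Atp11a (346), Slco1a6 (125), Slc22a7 (158) and Slc22a19 (108.5) were less far below WT lows of 2281, 278, 202 and 116. The 8 adipose genes had sums of 71.0 to 313 CPM in WT and 82.7 to 139 in dKO, with none at 0 reads, and their part in the Aqp7 level was not tested.

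Of 8 genes that handle glycerol, which Aqp3 and Aqp7 let through, 1 passed the threshold as lower and 0 as higher. The one was Gpd1l, a glycerol-3-phosphate dehydrogenase-like enzyme, which fell by 0.41 on the log2 scale, from 93.7 ± 4.19 to 70.6 ± 4.38 CPM (SE 0.0724, adjusted p = 0.0198). Glycerol kinase, Gk, which traps glycerol in the cell, had 811 ± 68.4 CPM in WT and 612 ± 65.0 in dKO with no overlap between groups, but missed the threshold (log2 -0.41, adjusted p = 0.0911). Gpat3, an acyltransferase that joins fatty acids to glycerol-3-phosphate, had 8.11 ± 0.843 CPM in WT and 14.98 ± 6.79 in dKO, also with no overlap and also short of the threshold (log2 0.89, adjusted p = 0.124). Of the same list Gpd1l, Tkfc and Pgp did not overlap either, and 12.1% of all tested genes had this property. The median of the 8 genes was -0.22, with 2 of 8 above 0.

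Aqp8 (chromosome 7, 123462291 to 123468004), an aquaporin of liver, pancreas and colon that is scarce in kidney, had 15, 37, 37 and 15 reads in WT and 49, 37, 21 and 13 in dKO. Values ran from 0.835 to 2.56 CPM in WT and from 0.716 to 2.17 in dKO, so that libraries of 1 group differed more than the groups did. Its log2 fold change was -0.08 (SE 0.483, 95% interval -1.15 to 0.998, adjusted p = 0.963). Of the family members outside the 9 genes, Aqp9 had 0 to 2 reads per library and the pseudogene Aqp10-ps 0 to 1, and neither was tested.

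The genes whose log2 levels ran most like each aquaporin over the 8 libraries were taken from 13082 protein-coding genes with a mean of at least 1 CPM. These coefficients describe 8 libraries that share their groups and the pair that stood apart. For Aqp6 they were Slc4a1 (Pearson r = 0.999), Hmx2 (0.998) and Atp6v1g3, an intercalated cell proton pump subunit (0.997). For Aqp2 they were Fam129b (0.992), the actin-binding Dbn1 (0.991) and the glycolytic enzyme Pkm (0.989). For Aqp4 they were Wnt4, a signalling ligand of the collecting duct (0.992), the simple-epithelium keratin Krt18 (0.991) and Plet1 (0.979). For the 6 other aquaporins the first in order were Txnl4a for Aqp3 (0.979), Rhbdf1 for Aqp7 (0.986), Ptk2b for Aqp11 (0.985), Ndrg1 for Aqp8 (0.965), Ppp4r1 for Aqp1 (0.934) and Cstf1 for Aqp5 (0.927). No gene was named for more than 1 aquaporin among the 3 closest to each.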

How the data were processed

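Per the labels, alignment used HISAT2 2.0.4 and counting per gene used HTSeq 0.9.1. No genome build was given in the sources used here. The deposited table holds raw counts, which were used for every test, and FPKM values, which the authors made relative to gene length and library size and which were used only for levels between genes. A signal column per library, the counts divided by a size factor by the authors, and the columns of the authors' own comparison (log2 fold change, its p-value and adjusted p-value) were not used. Of the per-sample columns, 0 had no sample.

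Genes were filtered with filterByExpr (minimum count 10, minimum total 15), scaled by TMM and compared by edgeR 4.0.16 (quasi-likelihood, robust, two-sided; R 4.3.3), with Benjamini-Hochberg adjustment over all 15912 tested genes and a threshold of 0.05. CPM uses scaled library sizes, and 0.5 was added before taking log2. The SE is the fold change over the square root of F. The relative level is log2 CPM minus the mean of the cell-type genes in that library. A floor of 3 reads per library was used. The script was tested on simulated data. Depth, at 14791687 to 24973213 reads, leaves genes near 10 reads with wide intervals. dKO replicates are numbered in accession order. The labels list separate samples and do not say that each is its own animal, so p-values may measure technical spread.

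The aquaporins, gene lists, motifs and tests were chosen with earlier results of these data known. Named genes were the 9 aquaporins, up to 3 per list by adjusted p, the 3 most alike by Pearson r, and the 3 nearest on each side of the cluster; list genes are named with values only where a result turns on them. Slc4a1, Hmx2, Atp6v0a4 and Adgrf5, list genes called without some libraries, and the FPKM ratios were picked after their values were seen. Alternatives were other size factors, DESeq2 1.42.0, limma-voom 3.58.1, other filters, non-robust estimation, abundant genes left out, limma on log2 of FPKM plus 1 or 0.1, and each library left out. Sequences and motif shares come from RefSeq (GRCm38.p6). Mip and Aqp12 were not analysed here.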

Additional observations from a re-analysis of the deposited data

Results flagged for a closer look

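Among the 18 groups of 4 libraries (9 aquaporins, WT and dKO), 2 held a library whose distance to its nearest neighbour took a larger share of the range of its group than Dixon's 95% critical value allows. Chance alone would put about 1 in 20 groups past that limit. Aqp2 in dKO replicate 1 stood at 1234 CPM, with the nearest dKO library at 407.7. This is the library with 0 Y-linked reads and 11083 Xist reads. Aqp6 in the library labelled dKO replicate 4 stood at 78.3 CPM, with the nearest dKO library at 0.0578, and the same library held 834 reads of Foxi1 against 27 to 35 in the other dKO libraries.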

How the results depend on the processing

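Over 19 alternatives, Aqp1, Aqp3, Aqp4 and Aqp7 kept their direction and stayed short of the threshold, and Aqp2 kept its direction with a log2 fold change between 0.52 and 1.39. The count of aquaporins past the threshold was 0 as reported and 0 to 1 when 1 library was left out; it was 1 by limma-voom (Aqp6, log2 -8.29, adjusted p = 0.0327) and 1 without dKO replicates 1 and 4 together. DESeq2 gave Aqp6 no adjusted p. Over all genes the count was 363, 342 by limma-voom, 971 by DESeq2, and 138 to 628 with 1 library left out. Among list genes it was 6, 15 by DESeq2, 2 to 13 with 1 library left out (12 without dKO replicate 1, 13 without the library labelled replicate 4) and 18 without both. Snap23 passed in all 19, Slc22a8 in 16, Gpd1l and Slco1a6 in 14 each.

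Directions turned only where no call was made. With 1 library left out, the log2 fold change ran from -0.398 to 0.0708 for Aqp5 (above 0 without WT replicate 1, dKO replicate 3 or dKO replicate 4), from -0.343 to 0.253 for Aqp8 (above 0 without WT replicate 2 or 3 or dKO replicate 3 or 4) and from -0.0499 to 0.0161 for Aqp11 (above 0 without WT replicate 1 or dKO replicate 1). Without dKO replicates 1 and 4 Aqp11 was at 0.0043. Relative to its cell-type genes and with 1 library left out, Aqp1 ran from -0.0679 to 0.0517 (above 0 without dKO replicate 2), Aqp11 from -0.0230 to 0.0723 (below 0 without WT replicate 4 or dKO replicate 1) and Aqp8 from -0.0674 to 1.59 (below 0 without dKO replicate 1). With the list median relative Aqp1 was 0.23, and without dKO replicates 1 and 4 relative Aqp3 was 0.0276, Aqp4 -0.0317 and Aqp11 -0.0325. The cause was not tested. No aquaporin passed relative to its cell-type genes under any of 13 alternatives. With all libraries at least 5 of 8 would have to reach the smallest p to pass. Without dKO replicates 1 and 4 too few divisions are left for any p under 0.05, so no gene could have passed there.

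The filter of 1 CPM in 4 libraries left no value for Aqp5. No paired analysis was possible because the dKO labels carry no replicate numbers that match those of WT. With 4 libraries a group, 1 atypical library decides the size and the edgeR call of Aqp2, and another the edgeR call of Aqp6. The call of Aqp6 also depends on the method, since limma-voom made it with all libraries. Aqp5 and Aqp8 rest on few reads.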
